A study of Mus musculus with 18 samples.

Results

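Sox9, Sox5 and Sox6 are the 3 transcription factor genes that set up cartilage, and their surroundings were examined for binding of the hindlimb factor Pitx1 and the forelimb factor Tbx5. Binding sites were taken as peak summits, the highest points of the peaks called from chromatin immunoprecipitation followed by sequencing (ChIP-seq). For Sox9, every summit inside the gene or within 500 kb of either end was included. For Sox5 and Sox6, a summit was included when that gene was the nearest protein-coding gene and lay no more than 100 kb away. These rules gave 168 of the 54941 Pitx1 summits and 37 of the 10273 Tbx5 summits.

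The series has 18 samples, all from wild-type embryos of CD1, an outbred mouse strain, and the summit lists of 2 of them were used. Pitx1 was mapped in e11.5 hindlimb buds and Tbx5 in e10.5 forelimb buds (days of embryonic development), each with a homemade antibody and paired-end reads. The study asked how gene networks differ between the limbs. The lists differ at once in factor, antibody, limb and stage, each is 1 sample without a replicate, and whole buds mix cell types. No value below therefore has a replicate error and no test between the factors was possible. The 95% intervals are exact Clopper-Pearson intervals that cover only the counting of summits. Read depth is unknown, so a longer list cannot be read as more binding.

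In the limb bud, mesenchyme condenses into rods that turn into cartilage, the template of the limb skeleton. Sox9, of the SoxE group, is needed for condensation and for cartilage formation. Sox5 and Sox6, of the SoxD group, act with Sox9 and help it to switch on genes of the cartilage matrix. Sox9 is known for regulatory sequences that lie far from the gene in a stretch poor in other genes. Pitx1 is a homeodomain protein of the hindlimb, and Tbx5 is a T-box protein needed for forelimb outgrowth.

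The genes differ greatly in size. Sox9 spans 5.55 kb (chromosome 11, 112782210 to 112787757), Sox5 954 kb (chromosome 6, 143828425 to 144782287) and Sox6 570 kb (chromosome 7, 115470872 to 116040776), all in build mm10. The nearest protein-coding gene to Sox9 on its higher-coordinate side is Slc39a11, 457 kb away, and on the lower side the nearest is 1056 kb away. The surveyed stretch was 1006 kb for Sox9, 1154 kb for Sox5 and 690 kb for Sox6.

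RefSeq (GRCm38.p6, the assembly that mm10 represents) gave 7 promoter sequences for the trio, 1 for Sox5 and 6 for Sox6, each with 250 bases before a transcript start and 50 from it on. The set has no Sox9 promoter, and its 1 Sox5 promoter lies inside the gene, far from the 5′ end. Summits near the ends of these genes are given below. The share of all promoters that hold a summit is not given here. Just 2 of the 7 held a summit, both at Sox6, and these are shown because a summit falls within a listed promoter. Both lie on the minus strand and are written 5′ to 3′ along the gene. The first covers chr7:116038695-116038994 and holds a Tbx5 summit with a score of 2.61 at its base 22, with a Pitx1 summit (score 7.07) 8 bp beyond its 5′ edge. The second covers chr7:115824661-115824960 and holds a Pitx1 summit with a score of 5.92 at its base 111. Capitals mark AGGTGT, a core sequence bound by T-box proteins.
Sox6 start at 116038744: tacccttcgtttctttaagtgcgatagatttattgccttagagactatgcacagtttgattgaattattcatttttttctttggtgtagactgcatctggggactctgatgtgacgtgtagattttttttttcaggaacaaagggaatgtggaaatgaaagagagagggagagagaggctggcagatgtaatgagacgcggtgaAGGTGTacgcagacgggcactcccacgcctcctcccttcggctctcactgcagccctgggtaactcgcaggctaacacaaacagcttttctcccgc
Sox6 start at 115824710: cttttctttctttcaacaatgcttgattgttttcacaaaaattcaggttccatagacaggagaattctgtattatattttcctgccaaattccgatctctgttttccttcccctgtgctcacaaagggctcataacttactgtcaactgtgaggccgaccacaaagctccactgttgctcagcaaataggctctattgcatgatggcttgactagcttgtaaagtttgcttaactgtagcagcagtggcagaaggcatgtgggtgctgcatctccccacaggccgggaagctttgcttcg
Both strands were searched for AGGTGT and for TAATCC, a sequence preferred by homeodomain proteins of the Pitx1 type, and the motifs share no overlap in these sequences. AGGTGT was found in 2 of the 7 promoters, among them the first shown, where it starts at base 205 and so away from the summit. TAATCC was found in 1 of the 7, which held no summit. Over all 32851 promoters of 300 bases, 13.7% held AGGTGT and 7.06% held TAATCC. A match is a run of letters and not a measured site. The higher scores at Sox6 described below lay elsewhere.

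Pitx1 summits were dense around all 3 genes. Sox9 had 57, Sox5 59 and Sox6 52, or 56.7, 51.1 and 75.3 per Mb. Windows of 500 kb on each side of every protein-coding gene had a median of 22.5 Pitx1 summits per Mb (quartiles 12 and 32.8), and 3.25% of 21887 genes had at least the density of Sox9. For genes with long domains, meaning that 500 kb or more of sequence is nearest to them, the median was 15.7 per Mb, and 13.1% of these 351 genes reached the density of Sox5 and 4.84% that of Sox6. The number at Sox9 depends on the window, with 36 Pitx1 and 4 Tbx5 summits within 250 kb, and 115 and 25 within 1000 kb.

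Tbx5 summits were fewer and were spread less evenly over the genes. Sox9 had 8, Sox5 12 and Sox6 17, or 7.96, 10.4 and 24.6 per Mb. The median was 2.98 per Mb for windows around all genes, and 10.6% of genes had at least the Tbx5 density of Sox9. Among genes with long domains the median was 3.15 per Mb, and 13.7% reached the Tbx5 density of Sox5 but 1.71% that of Sox6. Sox6 thus had more Tbx5 summits than Sox5 on a shorter stretch, and fewer Pitx1 summits than Sox5.

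**Figure D1:**
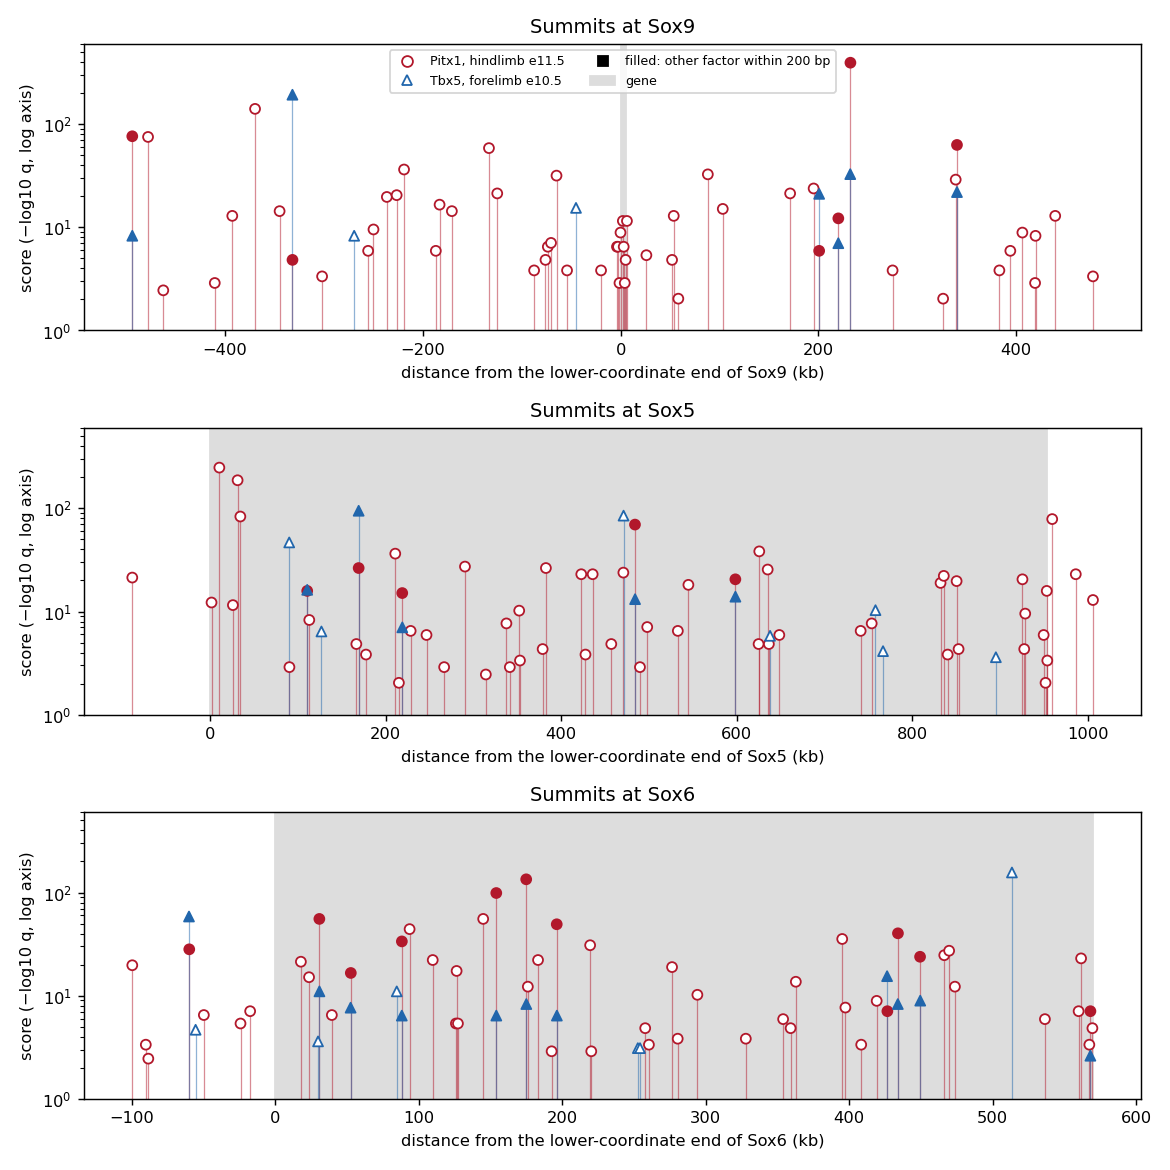
Pitx1 summits (circles) and Tbx5 summits (triangles) at Sox9, Sox5 and Sox6, by distance in kb from the lower-coordinate end of the gene and by score (−log10 q, log axis). Filled symbols have a summit of the other factor within 200 bp, grey marks the gene, and the highest scores at Sox9, 395 for Pitx1 and 193 for Tbx5, lie 227 and 332 kb from the gene.

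The scores of these summits, the deposited −log10 of the peak's q-value, had medians close to those of the lists. Over the 168 Pitx1 summits the median score was 8.90 (quartiles 4.84 and 22.2), against 7.07 (3.83 and 15.1) in the whole list. Over the 37 Tbx5 summits it was 8.29 (6.40 and 16.2), against 8.29 (5.07 and 18.6). For Tbx5 the middle of the scores thus equals that of the list and for Pitx1 it is slightly higher, and it is the number of summits that is high around the trio.

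At Sox9 the strong Pitx1 sites lay far out. The highest score, 395, was at position 113014576, 227 kb beyond the higher-coordinate end and outside every annotated gene, and it ranked 46 in the whole Pitx1 list. Next came 141 at position 112412622, 370 kb out on the lower side, then 76.4 and 75.3 at 494 and 478 kb on that side (positions 112288485 and 112304426). The fifth, 63.0 at position 113122314, lay 335 kb out on the higher side inside the long noncoding RNA gene 2610035D17Rik. All 5 were more than 200 kb from Sox9, as is most of the 1006 kb window. Sox9 was the nearest protein-coding gene for 46 of the 57 summits, and 1 lay inside Slc39a11. Of the 5 sites named, the one at position 113122314 lies nearer to Slc39a11 than to Sox9. The lower side held 30 Pitx1 summits and the higher side 23, and 15 of the 57 were inside annotated long noncoding RNA genes. The share of the whole list inside such genes is not given, so the 15 cannot be read as many or few.

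The gene itself was surrounded by a tight row of Pitx1 sites. Within 5 kb of Sox9 there were 9 summits along 10.1 kb, 4 of them inside the gene and one 97 bp outside its lower-coordinate end. Their scores ran from 2.89 to 11.54 with a median of 6.49. None had a Tbx5 summit within 200 bp, where 7.39% of the whole Pitx1 list had one. From 5 to 100 kb there were 13 summits with a median of 5.37 and a highest score of 32.7, and beyond 100 kb there were 35 with a median of 12.9. Of 7926 protein-coding genes up to 10 kb long, 20, or 0.252%, had 9 or more Pitx1 summits within 5 kb, a comparison chosen after the values were seen. Few short genes thus had as many sites so close.

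Tbx5 showed no summit in that row, a stretch of 10.1 kb in a window with 7.96 Tbx5 summits per Mb. So short a stretch would hold few at that density. The Tbx5 summit nearest to Sox9 lay 45.1 kb out on the lower side (position 112737111, score 15.4), and 7 of the 8 lay more than 100 kb away. Most of the window lies that far out, as did 35 of the 57 Pitx1 summits. The highest Tbx5 score by far, 193 at position 112450411, was 332 kb out on the lower side and stood in the top 1.14% of its list. Next were 32.8 at position 113014414, 22.0 at 113122311 and 21.1 at 112982966, all on the higher side between 195 and 335 kb. Each side held 4 Tbx5 summits. The remaining scores were 8.29 at 2 positions, 112288508 and 112512825, and 7.02 at position 113002342.

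Tbx5 sites around Sox9 were next set against the Pitx1 sites. Summits of the factors were counted as shared at a distance of up to 200 bp. For Tbx5 this held for 6 of 8, or 75% (95% interval 34.9 to 96.8), against 39.5% of the whole Tbx5 list. All 4 on the higher-coordinate side were shared and 2 of the 4 on the lower side. With 8 summits the interval includes the share of the whole list. With both lists limited to scores at or above their medians, 42.9% were shared, against 37.1% of the list, and with the second Pitx1 list described below 50%, against 23.2%. Counted from the Pitx1 side, 6 of 57 summits, 10.53% (3.96 to 21.5), were shared, against 7.39% of the Pitx1 list.

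At these 6 sites the factors often differed in score. The Pitx1 summit of score 395, in the top 0.0837% of its list, lay 162 bp from the Tbx5 summit of 32.8, in the top 14.0% of its own. The reverse held 332 kb out on the lower side, where the Pitx1 score was 4.84 (top 63.2%) beside the Tbx5 score of 193, 48 bp apart. The site 494 kb out combined a Pitx1 score of 76.4 with a Tbx5 score of 8.29, 23 bp apart. On the higher side, the summits 335 kb out were 3 bp apart with scores of 63.0 for Pitx1 and 22.0 for Tbx5. Those 195 kb out were also 3 bp apart with 5.92 and 21.1, and those 215 kb out were 12 bp apart with 12.2 and 7.02. Both factors thus had their strongest site of the window within 200 bp of a summit of the other, but not at the same place.

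Sox5 carried nearly all of its sites within the gene. Of 59 Pitx1 summits 54 were inside, and so were all 12 Tbx5 summits. The gene makes up 954 of the 1154 kb surveyed, so at an even density most summits would also lie inside it. The strongest Pitx1 sites formed a group near the lower-coordinate end, with scores of 249 at position 143838982, 187 at 143859779 and 83.4 at 143862905. RefSeq places Sox5 on the minus strand, so this end is the 3′ end of the gene. The next were 78.7 at position 144788196, 5.91 kb outside the higher-coordinate end, and 69.6 at position 144312672 inside the gene. None of the first 4 had a Tbx5 summit closer than 55.7 kb. The median distance from a Pitx1 to a Tbx5 summit was 47.5 kb over the whole Pitx1 list and 42.5 kb at Sox5. In 4 equal parts of the gene from the lower end, 15, 15, 11 and 13 Pitx1 summits were found, with highest scores of 249, 27.3, 69.6 and 22.2, so the number was even along the gene while the highest scores were not.

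Some Pitx1 sites also lay near the 5′ end of Sox5. Within 10 kb of the higher-coordinate end there were 5 Pitx1 summits with scores from 2.03 to 78.7 and a median of 5.92, the nearest 303 bp inside the gene with a score of 15.8. No Tbx5 summit fell in that short stretch, against 10.4 per Mb over all of the Sox5 stretch. The nearest was 58.3 kb inside the gene at a score of 3.60. At the 3′ end the nearest Pitx1 summit was 1.64 kb inside the gene (score 12.2) and the nearest Tbx5 summit 90.2 kb inside. Within 10 kb of its own 5′ end Sox6 had 4 Pitx1 summits. The share of all genes with as many is not given, so neither number can be read as many or few.

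Tbx5 sites at Sox5 were spread along the gene. The 5 highest scores were 94.8 at position 143997757, 85.1 at 144299654, 46.8 at 143918610, 16.2 at 143939110 and 13.9 at 144427144. The other 7 ran from 3.60 to 13.2. The same 4 parts held 5, 1, 3 and 3 Tbx5 summits.

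Sharing at Sox5 was close to that of the whole list. Of 12 Tbx5 summits 5 were shared, 41.7% (15.2 to 72.3), against 39.5%. Of the Pitx1 summits 5 of 59 were shared, 8.47% (2.81 to 18.7), against 7.39%. The site with the highest Tbx5 score, 94.8, had a Pitx1 summit of 26.4 at a distance of 2 bp, and a second pair with scores of 15.8 for Pitx1 and 16.2 for Tbx5 was also 2 bp apart. The other pairs were 59 bp apart (20.5 for Pitx1 and 13.9 for Tbx5), 66 bp (15.1 and 7.02) and 108 bp (69.6 and 13.2). Values beside the limit of 200 bp bear on Sox5, since its Tbx5 summits of 85.1 and 46.8 lay 216 and 234 bp from Pitx1 summits of 23.8 and 2.89. The pairs just within the limit were 186 and 192 bp apart, both at Sox6. Counting pairs within 500 bp, 7 of the 12 were shared, against 49.1% of the list.

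Over the stretches counted here Sox6 had the most Pitx1 and Tbx5 summits per Mb of the trio. Within 100 kb by nearest gene the order differed for Pitx1, with 10.7 summits per 100 kb at Sox9, 7.53 at Sox6 and 5.11 at Sox5. Inside the gene lay 45 of its 52 Pitx1 summits and 15 of its 17 Tbx5 summits, the others lying on the lower-coordinate side, beyond the 3′ end. The gene makes up 570 of the 690 kb surveyed. Beyond its 5′ end the next protein-coding gene, 1110004F10Rik, is 40.6 kb away, so the nearest-gene rule reached less far on that side. The 5 highest Pitx1 scores were 134 at position 115645809, 98.9 at 115624952, 55.5 at 115501659 and at 115615829, and 49.2 at 115667086. All were within the gene, in the part toward the lower-coordinate end. The 4 equal parts of the gene from that end held 11, 13, 10 and 11 Pitx1 summits, with highest scores of 55.5, 134, 35.4 and 40.2. Nearest to the 5′ end was a Pitx1 summit 398 bp inside the gene with a score of 4.84, and nearest to the 3′ end one 17.4 kb outside with 7.07.

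Tbx5 sites at Sox6 were many, with scores close to those of the whole list. The median score was 7.64, against 8.29 in the list, and 8 of 17 stood in the upper 50% of the list. The highest score, 156 at position 115984304, was inside the gene toward its 5′ end and in the top 1.70% of the list. The next was 58.5 at position 115410810, 60.1 kb beyond the 3′ end, followed by 15.4 at 115897302, and 11 at 115501709 and at 115555599. The other 12 ran from 2.61 to 8.95. The Tbx5 summit nearest to the 5′ end was 1.80 kb inside the gene (score 2.61) and the one nearest to the 3′ end 29.9 kb inside (score 3.60).

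Many of the Tbx5 sites at Sox6 coincided with Pitx1 sites. Shared were 11 of 17, 64.7% (38.3 to 85.8), against 39.5% of the whole list. From the Pitx1 side 11 of 52 were shared, 21.2% (11.1 to 34.7), against 7.39%. When the whole list was cut into 10 classes of score and weighted to the classes of the Sox6 summits, 37.9% of its Tbx5 summits were shared. Within 100 bp the share was 41.2%, against 28.8% of the list. No test was made, and the lower bound of 38.3% for Tbx5 lies just below the 39.5% of the list.

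Pitx1 stood higher in its list than Tbx5 did in its own at 9 of the 11 shared Sox6 sites, 81.8%, against 63.7% of all shared pairs. The lists come from different antibodies and differ in length, so their standings do not compare the binding of the factors. The 3 highest Pitx1 scores among them were 134, 98.9 and 55.5 beside Tbx5 scores of 8.29, 6.40 and 11, at distances of 80, 27 and 50 bp. Further sites had Pitx1 scores of 49.2, 40.2, 33.6, 23.8 and 16.6 beside Tbx5 scores of 6.40, 8.29, 6.40, 8.95 and 7.64, in the same order. The site at the promoter shown above had 7.07 for Pitx1 and 2.61 for Tbx5, 29 bp apart. Tbx5 stood higher in its list than Pitx1 at 2 sites, with Pitx1 scores of 28.1 and 7.07 beside Tbx5 scores of 58.5 and 15.4.

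The strongest Tbx5 site of Sox6 had no listed Pitx1 partner. The Pitx1 summit nearest to the Tbx5 summit of score 156 was 23.0 kb away. It lies in a stretch of 62.7 kb, between positions 115944561 and 116007284, without a listed Pitx1 summit. Peaks carry running numbers in genome order, and 4 Pitx1 numbers are missing across this stretch. A run of 4 or more missing numbers occurs in 0.615% of the intervals between neighbouring Pitx1 summits. That share covers intervals of every length, while this one is the longest at Sox6, where the median was 9.12 kb. It therefore does not tell how often so long an interval lacks 4 numbers. Whether a Pitx1 peak was called at this place and left out of the deposited list cannot be told from the list.

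**Figure D2:**
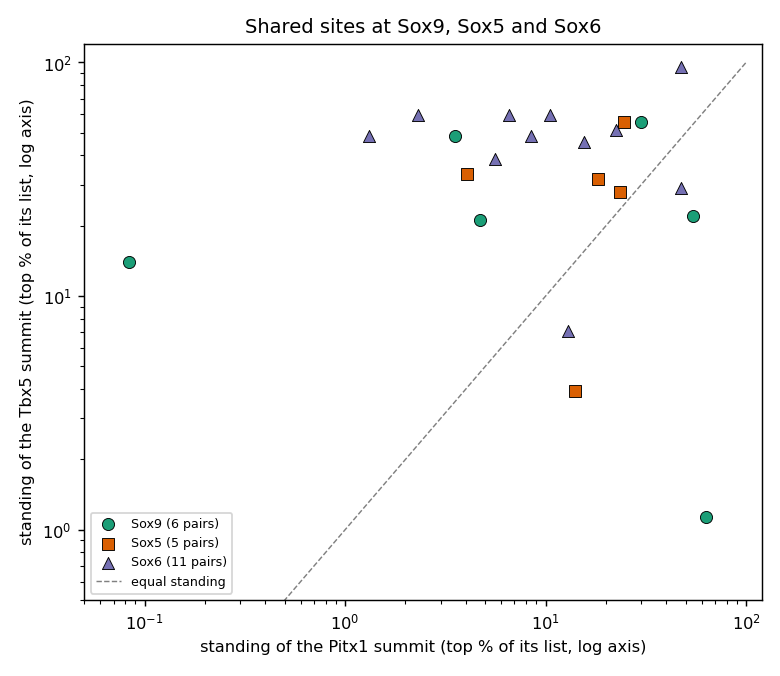
Standing of the Pitx1 summit (x axis) and of the Tbx5 summit (y axis) in their own lists, as the top percent by score on log axes, for the 22 shared sites at Sox9, Sox5 and Sox6. Points above the dashed line have Pitx1 standing higher than Tbx5, which holds for 17 of 22.

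Over the trio, 22 of 37 Tbx5 summits were shared, 59.5% (42.1 to 75.2), against 39.5% of the list, and 22 of 168 Pitx1 summits, 13.1% (8.39 to 19.2), against 7.39%. Sites of one gene are not independent samples, so the intervals describe the lists. Pitx1 stood higher in its list than Tbx5 at 17 of the 22 shared sites, 77.3%, against 63.7% of all 4062 shared pairs. Paired summits were a median of 54.5 bp apart, against 60.0 bp over all pairs, and 4 of the 22 pairs were within 5 bp, 18.2% against 5.71%. These 4 were 2 of 6 pairs at Sox9, 2 of 5 at Sox5 and 0 of 11 at Sox6. Across the 22 pairs the scores of the factors had a Spearman correlation of -0.09, against 0.13 over all pairs. Pairs share the library of each factor, and the correlation is given as a description.

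The deposited lists are incomplete in their peak numbers. The span at each gene ran from its first to its last listed summit. The numbers at its ends are thus present by construction, which raises the shares below, most in short spans. The intervals do not allow for this. Of the Pitx1 numbers spanned at each gene, 57 of 68 were present at Sox9, 59 of 65 at Sox5 and 52 of 62 at Sox6, against 77.8% of all numbers. These are 83.8% (72.9 to 91.6) at Sox9, 90.8% (81.0 to 96.5) at Sox5 and 83.9% (72.3 to 92.0) at Sox6, and the intervals at Sox9 and Sox6 include the value of the list. For Tbx5, all 8 numbers at Sox9 (lower bound 63.1%) and all 12 at Sox5 (73.5%) were present, and 17 of 20 at Sox6 (62.1 to 96.8), against 60.4% of all numbers. The part of the missing numbers in the summit densities was not tested.

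A second deposited Pitx1 list of 17783 summits is a subset of the longer one, and nothing in the sources states its criterion. It held 16 of the 57 Pitx1 summits at Sox9, 28.1% (17.0 to 41.5), 21 of 59 at Sox5, 35.6% (23.6 to 49.1), and 20 of 52 at Sox6, 38.5% (25.3 to 53.0). The share over the whole list was 32.4%. Weighted in the same way to the score classes at Sox9, Sox5 and Sox6, the whole list gave 36.8%, 40.6% and 43.6%, and each of these values lies above the observed share and within its interval. None of the 9 summits in the row at Sox9 was kept, and 13 of the 35 beyond 100 kb were, where the same weighting gave 1.62 of the 9 and 15.9 of the 35. The 5 highest Pitx1 scores of each gene were all kept. How often equally high scores were kept in the whole list is not given, so this cannot be read as particular to these genes. Of the 22 shared sites 13 had their Pitx1 summit in the second list, 59.1% against 58.6% of all shared pairs, with 4 of 6 at Sox9, 1 of 5 at Sox5 and 8 of 11 at Sox6.

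**Figure D3:**
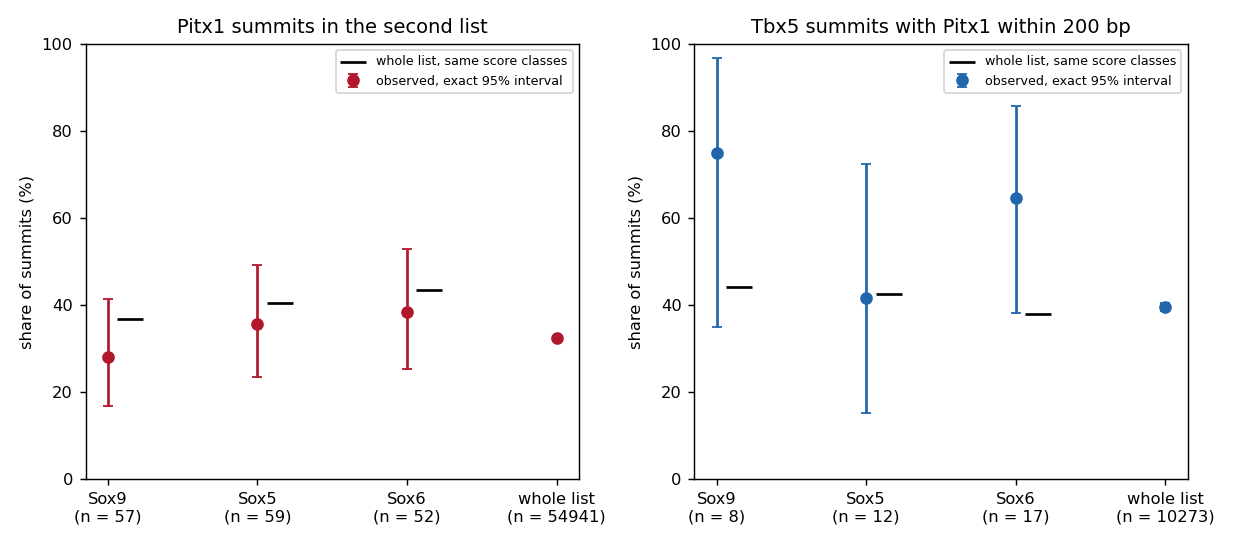
Left, percent of Pitx1 summits found in the second deposited list, and right, percent of Tbx5 summits with a Pitx1 summit within 200 bp, at Sox9, Sox5 and Sox6 and over the whole list. Points are observed shares with exact 95% intervals and black bars the share over the whole list weighted to the same score classes. The shared Tbx5 share is 75% at Sox9, 41.7% at Sox5 and 64.7% at Sox6, against 39.5% over the list.

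Other genes of the cartilage program were counted in the same way, by the nearest protein-coding gene within 100 kb. Under this narrower rule Sox9 had 22 Pitx1 summits and 1 Tbx5 summit. Over all protein-coding genes 54.0% had a Pitx1 summit, 18.6% a Tbx5 summit and 8.78% a shared Tbx5 summit, with medians of 1.00 Pitx1 and 0 Tbx5 summits. By number of summits, not scaled to domain length, Sox5 ranked 14 for Pitx1 and 27 for Tbx5 among all genes. Sox6 ranked 22 for Pitx1 and 6 for Tbx5.

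The closest relatives of the trio had few sites. Sox13, the remaining SoxD gene, had 4 Pitx1 summits and Sox8, a SoxE gene, had 3. Sox10, a SoxE gene of neural crest cells, had none. No Tbx5 summit was assigned to any of the 3. Their domains were between 43.3 and 133 kb, against 690 and 1154 kb for Sox6 and Sox5, and per 100 kb Sox8 had 6.92 Pitx1 summits and Sox13 3.01, against 5.11 for Sox5 and 7.53 for Sox6.

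Pitx1 summits were assigned to each of 9 other regulators of the limb skeleton and Tbx5 summits to 6 of them, with medians of 10 and 1.00. Trps1, a zinc finger repressor of the growth plate, had 39 Pitx1 and 9 Tbx5 summits. Bmpr1b, a receptor for bone morphogenetic proteins in condensing cartilage, had 31 and 10, and Runx2, needed for bone formation, had 22 and 6. Nkx3-2, a homeodomain repressor that favours cartilage, had 15 Pitx1 summits in a domain of 41.0 kb and 1 Tbx5 summit. Runx3, a relative of Runx2, had 10 and 4, and Foxc1, a forkhead gene, 9 and none. Gdf5, a joint growth factor, had 4 and none, Pth1r, a parathyroid hormone receptor of the growth plate, 4 and 1, and Ihh, the hedgehog ligand of the growth plate, 1 and none. Shared Tbx5 summits were found at 5 of the 9. Per 100 kb, Pitx1 summits numbered 36.6 at Nkx3-2, 26.4 at Gdf5, 10.4 at Pth1r, 9.37 at Foxc1 and 8.95 at Trps1. Bmpr1b had 8.41, Runx3 5.99, and Runx2 and Ihh 5.25 each, against 7.53 at Sox6 and 5.11 at Sox5. For Tbx5 the values were 2.71 at Bmpr1b, 2.59 at Pth1r, 2.44 at Nkx3-2, 2.40 at Runx3, 2.06 at Trps1 and 1.43 at Runx2. Sox6 had 2.46 and Sox5 1.04.

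Genes of the cartilage matrix and surface, many of them known targets of the trio, had far fewer. Of 14 genes, 11 had a Pitx1 summit and 2 a Tbx5 summit, with medians of 1.5 and 0. Col2a1, which encodes the main cartilage collagen, had 8 Pitx1 summits with a highest score of 43.2. Col9a1, which encodes a chain of type IX collagen, had 6 Pitx1 summits, with a highest score of 187, and 2 Tbx5 summits, with a highest score of 123, both shared. Col11a1, a type XI collagen gene, had 4 and 1. Acan, which encodes the proteoglycan aggrecan, Snorc, which encodes another cartilage proteoglycan, and Fgfr3, a growth factor receptor of the growth plate, had none of either factor. Per 100 kb, Col2a1 reached 16.4 Pitx1 summits and Matn3, which encodes the matrix protein matrilin, 10.1, against 10.7 at Sox9, 7.53 at Sox6 and 5.11 at Sox5. The domain of Acan, which held none, was 129 kb.

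**Figure D4:**
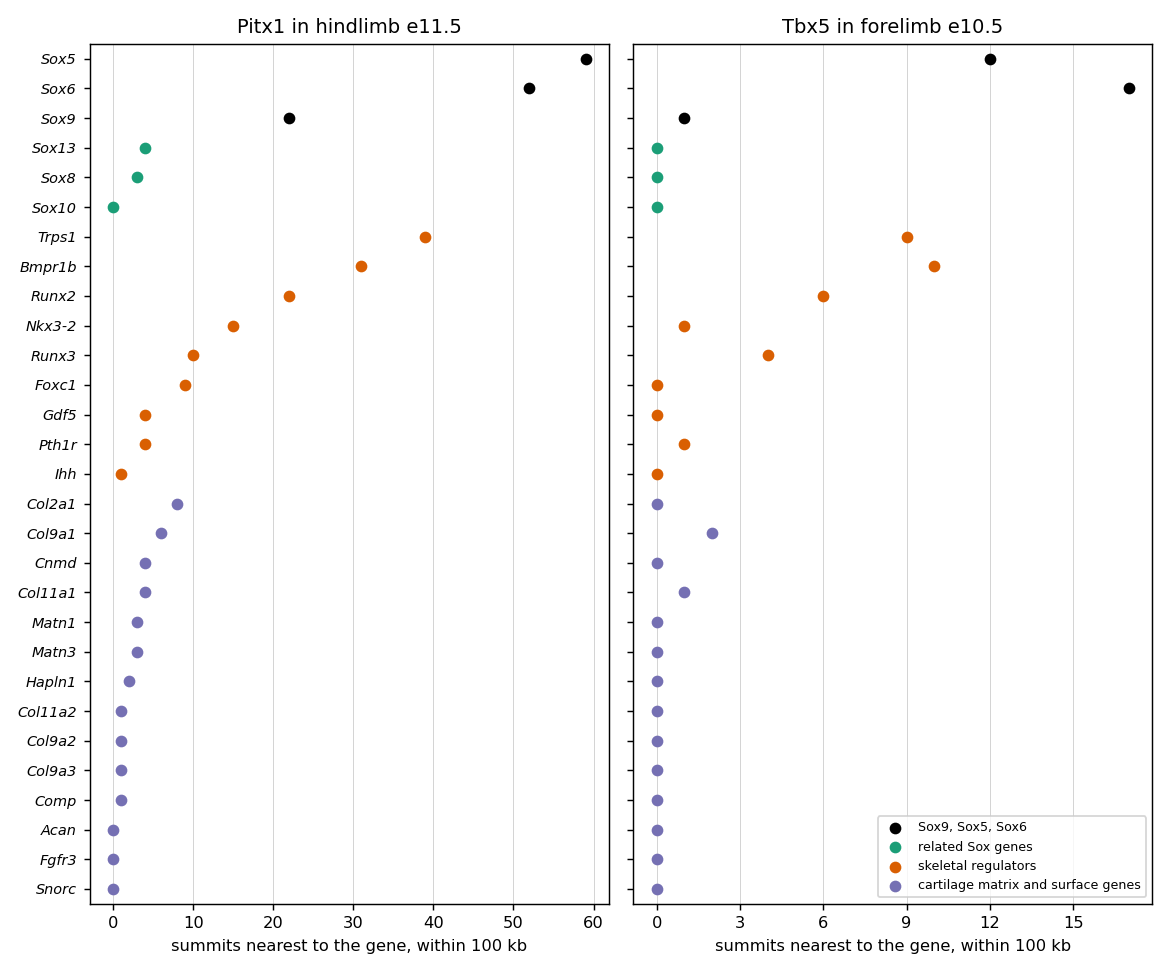
Number of Pitx1 summits (left) and Tbx5 summits (right) whose nearest protein-coding gene, within 100 kb, is the gene named on the y axis. Sox5 and Sox6 have the largest numbers, 59 and 52 Pitx1 and 12 and 17 Tbx5 summits, followed by Trps1 and Bmpr1b. Most matrix genes have few Pitx1 and no Tbx5 summits. Numbers are not scaled to domain length, which is 1154 kb for Sox5 and 690 kb for Sox6.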

How the data were processed

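Peak summits of 1 Pitx1 and 1 Tbx5 ChIP-seq sample were used, on build mm10. Going by the submitters' processing notes, the authors used HOMER, MACS2 2.1.1.20160309, Bowtie2 2.2.6 and Bowtie 1.1.2, in roles that are not stated. The deposited score was taken to be a −log10 q-value, as MACS2 writes for summits, because peak names contain macs2 and no score is below the −log10 of 0.05 (lowest 1.31 in the Pitx1 and 1.42 in the Tbx5 list). The second Pitx1 list carries a further deposited score, unexplained and not used for any result. The labels name an input sample for each factor, not analysed here. They do not say which control the peak caller was given, and read depth and pooling are not stated.

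All 17783 summits of the second list were found by name and position in the longer one. Nearest genes, shared pairs (within 200 bp), 10 score classes and exact 95% intervals were computed in Python 3.11.15 with pandas 2.3.3, NumPy 2.4.6 and SciPy 1.17.1, using 21887 RefSeq protein-coding genes. A summit inside overlapping genes went to the gene that starts first. The functions were tested on simulated data. Named sites are the 5 highest scores per gene and factor and all shared pairs. The genes and lists were chosen with earlier results of these data known, and no p-value is given. Alternatives were the span around each gene, the score, the sharing distance and the second list.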

Additional observations from a re-analysis of the deposited data

How the results depend on the processing

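No paired analysis was possible because each factor has 1 sample and no result comes from a test. Of 45 alternative values, 32 stayed within the interval of the reported share or within 1.5 times the reported number. By kind these were 9 of 18 numbers of summits, 17 of 18 shared shares and 6 of 9 shares in the second list. The intervals of the shared shares are wide (34.9 to 96.8 at Sox9), so staying within them is a weak criterion. Around Sox9 the numbers follow the window, with 36 Pitx1 and 4 Tbx5 summits within 250 kb, and 115 and 25 within 1000 kb. Keeping summits at or above the median score of their list left 30 Pitx1 summits at Sox9, 34 at Sox5 and 33 at Sox6, and 7 Tbx5 summits at Sox5 and 8 at Sox6. Of these Pitx1 summits the second list held 50% at Sox9, 52.9% at Sox5 and 57.6% at Sox6. The share of the whole list at these scores is not given here. These values therefore cannot be set beside its 32.4% over all scores. The shared share of Tbx5 summits at Sox5 was 8.33% with the second Pitx1 list, against 23.2% of the whole Tbx5 list, since 1 of its 5 pairs has a Pitx1 summit there. For the shared share at Sox9 the alternatives ran from 42.9% to 75%, and at Sox6 from 41.2% to 75%. The whole Tbx5 list gave 37.1% with both lists limited to their upper scores, 28.8% within 100 bp and 49.1% within 500 bp. Unknown read depth and single samples limit every number.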
